A study of Homo sapiens with 2 samples.

Results

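The genes described here make, load or switch on major histocompatibility complex (MHC) class I molecules: the heavy chains HLA-B, HLA-C and HLA-E, the light chain B2M, the peptide transporter subunits TAP1 and TAP2, the immunoproteasome subunits PSMB8 and PSMB9, and the transactivator NLRC5. They were found through the RefSeq accession of every probe that was not a control, and each probe was kept whether or not it lay above background. The 9 genes had 13 of the 58201 probes on the array, and 22439 genes had at least 1 named probe. HLA-B, HLA-E, TAP2 and NLRC5 had 2 probes each and the other 5 genes had 1.

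Class I molecules show peptides cut from the proteins of a cell to cytotoxic T cells. The proteasome cuts the peptides, the TAP1 and TAP2 dimer pumps them into the endoplasmic reticulum, and there a heavy chain paired with B2M is loaded before it travels to the surface. Human embryonic stem cells are known for little class I on their surface, which interferon gamma raises, and NLRC5 switches on many genes of this pathway together.

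RNA came from H9, an established human embryonic stem cell line, grown in TeSR-E8 medium on Matrigel after a move from vitronectin. Colonies on Matrigel were told apart by staining: substate 1 was bright for the glycan epitope R-10G and lacked vimentin, whereas substate 2 was weaker for R-10G and had vimentin, a mesenchymal filament protein. By their labels, substate 1 was taken at passage 35 and substate 2 at passage 50, so passage and substate cannot be told apart. The paper states that H9 cells of passage 35 were put on Matrigel and kept there for later passages. Time on Matrigel may therefore differ between the samples, and cannot be told apart from substate either. Each substate had 1 RNA sample of this single line on 1 array, so no difference has a replicate check and no test was possible. How the cells of each substate were gathered for the arrays is not given in the sources used here. In bulk RNA, fewer cells of a type and less RNA per cell cannot be told apart either.

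Each array had 62976 spots of 1 colour. Of the 60901 that were not controls, 57.4% lay well above background for substate 1 and 54.7% for substate 2, and none was saturated. Signals were scaled to the 75th percentile of each array, so a normalised log2 signal of 0 stands for that percentile. A gene or probe is called measured where it lay well above background on both arrays, and every difference is substate 2 minus substate 1 on the log2 scale. Over the 16001 measured genes the median difference was 0.08 with an SD across genes of 0.38, and the difference was below 0 for 40.2% of them. The markers that part the substates differed as labelled, with VIM at 2.53, CDH1 at -1.47 and the mesenchymal transcription factor ZEB1 at 2.54. ZEB2, its relative, was well above background in substate 2 only, with lower bounds of 1.82-fold, 5.39-fold and 2.87-fold for the excess shown by its 3 probes. Of 12 pluripotency markers 11 were measured, 8 higher and 3 lower, with a median of 0.18 that turned to -0.01 with quantile normalisation and -0.03 with loess centring. The largest differences were those of CRIPTO (-0.46), NANOG (0.42) and PODXL (-0.35).

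The start regions of 4 of the genes are shown here. Those of TAP1, HLA-B and B2M carry short motifs of the kinds through which class I genes are known to be switched on. That of PSMB9, which matched only the common string TGACG, is shown because TAP1 and PSMB9 face each other across 1 stretch of chromosome 6. Each run is the 250 bases before the RefSeq start site, read 5′ to 3′ on the strand of the gene (GRCh38.p14), with capitals for matches to the motifs named after it. The windows lie at chr6:32853705-32853954 on the minus strand for TAP1, chr6:32853942-32854191 on the plus strand for PSMB9, chr6:31357180-31357429 on the minus strand for HLA-B and chr15:44711267-44711516 on the plus strand for B2M.
TAP1: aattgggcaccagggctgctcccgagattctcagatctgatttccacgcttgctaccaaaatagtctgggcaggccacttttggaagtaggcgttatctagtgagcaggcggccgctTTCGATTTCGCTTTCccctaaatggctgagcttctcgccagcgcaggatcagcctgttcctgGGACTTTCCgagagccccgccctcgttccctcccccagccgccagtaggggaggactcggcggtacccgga
PSMB9: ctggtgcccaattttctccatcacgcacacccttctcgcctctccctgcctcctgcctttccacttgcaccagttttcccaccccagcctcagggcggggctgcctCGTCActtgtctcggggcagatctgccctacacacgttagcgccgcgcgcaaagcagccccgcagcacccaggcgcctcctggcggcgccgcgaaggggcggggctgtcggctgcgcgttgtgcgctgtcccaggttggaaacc
HLA-B: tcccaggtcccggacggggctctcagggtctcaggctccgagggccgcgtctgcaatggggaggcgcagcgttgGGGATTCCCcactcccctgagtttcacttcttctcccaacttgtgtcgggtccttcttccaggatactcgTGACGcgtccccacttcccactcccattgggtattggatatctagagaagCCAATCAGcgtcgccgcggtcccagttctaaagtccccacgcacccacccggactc
B2M: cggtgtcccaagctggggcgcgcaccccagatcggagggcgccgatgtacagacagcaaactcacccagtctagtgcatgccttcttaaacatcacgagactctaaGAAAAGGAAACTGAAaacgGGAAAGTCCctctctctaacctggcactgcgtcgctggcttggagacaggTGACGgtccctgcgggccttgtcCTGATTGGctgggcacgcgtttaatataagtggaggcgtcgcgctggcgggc

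Windows were found for 7 of the 9 genes, and HLA-E and NLRC5 are not shown. Motifs were searched on both strands as exact strings, with N for any base. A window without a match, such as that of HLA-B for GAAANNGAA, may therefore still hold a variant of the motif. The core of the interferon-stimulated response element, GAAANNGAA, bound by interferon regulatory factors, stood in B2M, TAP1 and TAP2, and in 6.88% of all 35116 windows of the same length. In B2M and in TAP1 it matched at 2 overlapping places. The string CTGATTGG, searched for as the Y box that the factor NF-Y binds, stood in HLA-B, HLA-C and B2M and in 3.81% of all windows. In HLA-B and HLA-C it lay at the same place, 56 to 49 bases before the start, on the opposite strand (CCAATCAG). In B2M it lay 52 to 45 bases before the start on the strand of the gene, and nearer to TGACG. Whether the match in HLA-B and HLA-C is their Y box or another element was not tested. The cAMP response element core TGACG stood in all windows found here but that of TAP1, and in 21.2% of all windows. The NF-kappaB site GGACTTTCC stood in B2M and TAP1 (0.333% of all windows), and the palindromic form GGGATTCCC in HLA-B (0.362% of all windows). The gamma-activated site TTCNNNGAA matched none of the 7 windows and 6.57% of all windows. The HLA-B and HLA-C windows had 226 identical bases in 254 aligned columns (89.0%). The start sites of TAP1 and PSMB9 lay 488 bases apart on opposite strands.

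TAP1 stood apart from the other genes of the pathway, and most of the rest were within a small step of no difference. Of the 9 genes, 8 were lower in substate 2 and PSMB8 was higher, where 40.2% of all measured genes were lower. The gene differences ran from -0.92 for TAP1 to 0.14 for PSMB8 with a median of -0.08. None of the 13 probes passed the Z-score limits of 2 in either direction, a rule of the study that 6.33% of all probes passed and that here meant 2.53-fold higher or 2.29-fold lower. Of the probes measured on both arrays 0.977% passed it. None differed 2-fold or more, which 3.22% of the probes that at least 1 array measured did. Of the 11 probes well above background, that of TAP1 alone was at least 1.5-fold lower, a limit passed downward by 7.64% of the probes that at least 1 array measured. The dim probes of TAP2 and NLRC5 were not counted for the fold limits. With median centring, or with another background correction (normexp), 6 of the 9 genes rather than 8 were lower. Of all measured genes 35.8% and 37.4% were lower under these 2 settings. Below the median gene lay 8 of the 9 genes in the main setting, 8 with median centring and 7 with normexp.

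**Figure D1:**
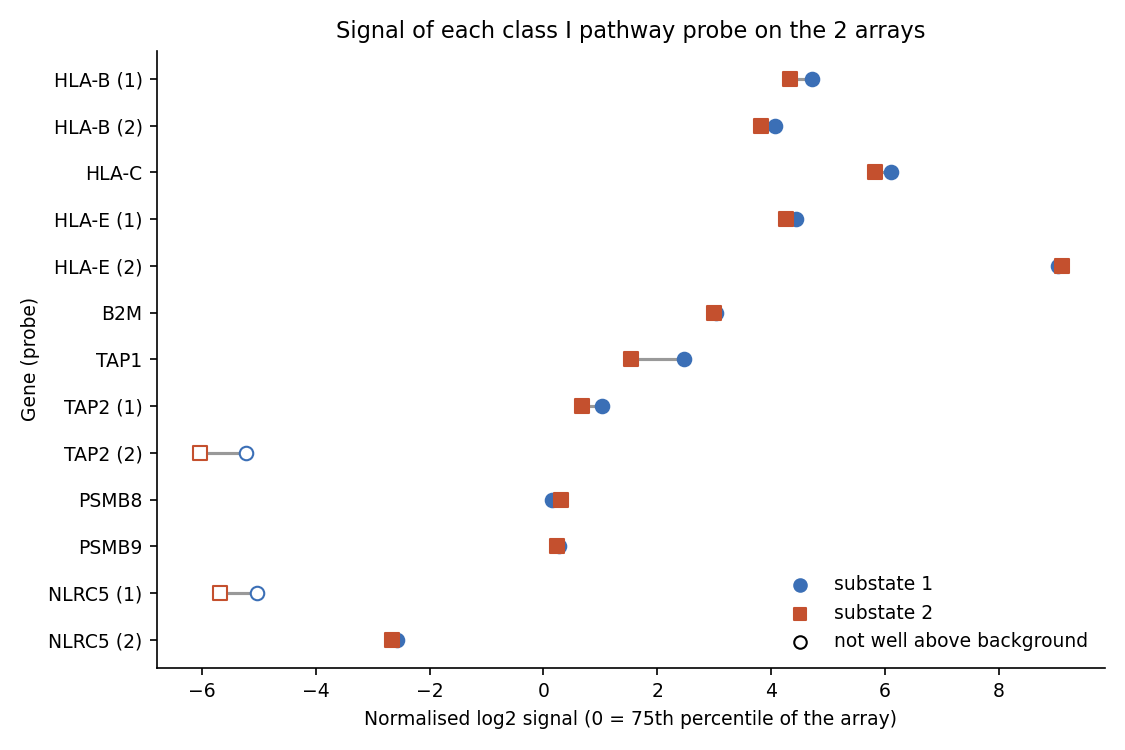
Normalised log2 signal of each of the 13 probes, with circles for substate 1 and squares for substate 2, and open symbols where a probe was not well above background. Probes of a gene are numbered in the order of the text, the shift between the symbols is widest for TAP1 among the filled ones, and a level may be compared between the arrays but not between probes.

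HLA-B, a classical heavy chain that presents peptides to T cells, was lower with both of its probes. The first (A_33_P3424800) had an intensity of 8241 in substate 1 and 5510 in substate 2, or 4.72 and 4.32 as normalised log2 signals. The second (A_33_P3379947) had 5285 and 3877. Their differences were -0.39 and -0.26, each with an error of 0.20 as the scanner software gives it. That error covers the measurement and not the cells. Both probes therefore lay more than 1 such error below 0 and less than 2. The software error hardly varied among the bright probes. It was taken per spot and was not made smaller for the 10 spots of B2M, where it was also 0.20. Replicate spots gave a smaller SD of 0.07 for a difference between single spots.

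HLA-C, the other classical heavy chain measured here, which is also read by inhibitory receptors of natural killer cells, was 1.22-fold lower. Its signal was 21692 in substate 1 and 15646 in substate 2, a difference of -0.28 ± 0.20. HLA-E shows signal peptides of other class I heavy chains to natural killer cells, and its 2 probes did not point the same way. The first (A_32_P460973) went from 6827 to 5250, a difference of -0.19 ± 0.20. The second (A_33_P7431456) went from 165509 to 151344, which after scaling was a difference of 0.06 ± 0.20. Both HLA-E values lay within 1 error of 0, and the direction of the second turned with the scaling, reaching -0.18 with loess centring. Class I heavy chain genes are near-identical over long stretches and vary between people, the probe sequences were not used here, and signal of one heavy chain on the probe of another cannot be told apart.

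B2M, the light chain that every class I heavy chain needs, was the best measured gene of the pathway because its probe was printed at 10 places on each array. Its spots ran from 2417 to 2704 with a median of 2544 in substate 1, and from 2084 to 2336 with a median of 2215 in substate 2. After scaling, the SD between spots was 0.05 in substate 1 and 0.04 in substate 2, and the spot values of the arrays overlapped. Spot by spot the difference ran from -0.08 to 0.06 with a median of -0.02, and 6 of the 10 were below 0. The spots share the RNA and the array, so this spread is that of the measurement. The B2M difference of -0.02, with 1 outlier spot left out in substate 1, became 0.02 with median centring and -0.12 with loess centring.

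TAP1, the first subunit of the peptide transporter, showed the largest difference of the 9 genes. Its signal was 1734 in substate 1 and 803 in substate 2, or 2.47 and 1.54 as normalised log2 signals. This made it 1.90-fold lower, a difference of -0.92 ± 0.20, which is 4.52 times the software error. Of the 16001 measured genes 237 (1.48%) had a difference as low or lower. The spot carried no outlier flag on either array, and its unprocessed median signal was 1548 against 824.5 over a local background of 35 and 35.5. Its Z-score over all probes was -1.57, inside the limits. Under the other scalings and background correction the TAP1 difference stayed between -0.997 and -0.747. With a single spot on each array, no second measurement of TAP1 was at hand.

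TAP2, the partner subunit, was lower by less. Its measured probe (A_33_P3214650) had 640 in substate 1 and 440 in substate 2, a difference of -0.35 ± 0.20 or 1.28-fold. The other TAP2 probe (A_23_P368067) had 8.38 and 4.22, was not well above background on either array, and gives no direction. Of all measured genes 11.7% were as low as TAP2 or lower.

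The immunoproteasome subunits PSMB8 and PSMB9, which replace catalytic subunits of the standard proteasome, hardly differed although their genes lie between and beside those of TAP2 and TAP1. PSMB8 had signals of 350 and 339 in substates 1 and 2, which after scaling was a difference of 0.14 ± 0.21. PSMB9 had 380 and 324, a difference of -0.04 ± 0.21, and its direction turned with normexp, to 0.09. NLRC5, the transactivator, was dim. One of its probes (A_23_P26583) had 9.55 and 5.35 and was not well above background on either array. The other (A_32_P416583) had 52.7 in substate 1 and 43.7 in substate 2, a difference of -0.08 ± 0.25 that came to 0.01 with normexp. These 3 genes lay within 1 error of 0.

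**Figure D2:**
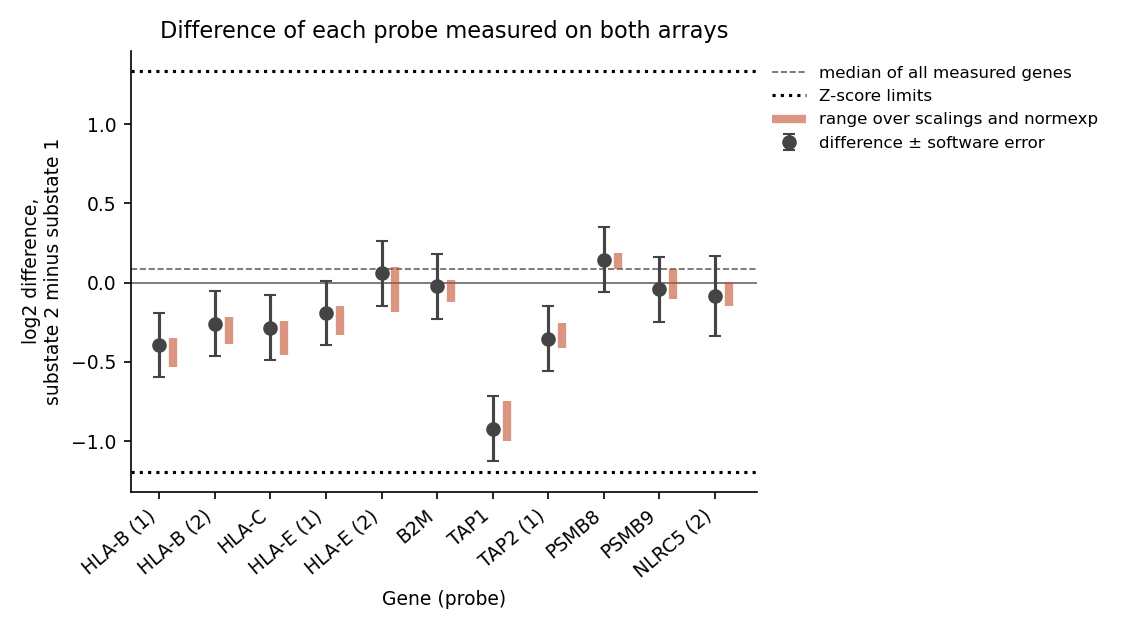
Log2 difference of each of the 11 measured probes (points) with the error of the scanner software (bars), and beside each the range over other scalings and the normexp background correction. The TAP1 interval, around -0.92, does not overlap that of any other probe, no point passes the dotted Z-score limits, the solid line is 0 and the dashed line is the median of all measured genes, 0.08.

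In order of their differences the genes ran TAP1, TAP2, HLA-B, HLA-C, NLRC5, HLA-E, PSMB9, B2M and PSMB8. TAP1 was parted from TAP2 by more than their errors, and no later neighbours in this order were. Of the 11 measured probes, 9 lay below 0 and 10 below the median gene. Lower by at least 1 software error were 5 of them, lower by at least 2 errors was the TAP1 probe alone, and none was higher by 1 error.

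**Figure D3:**
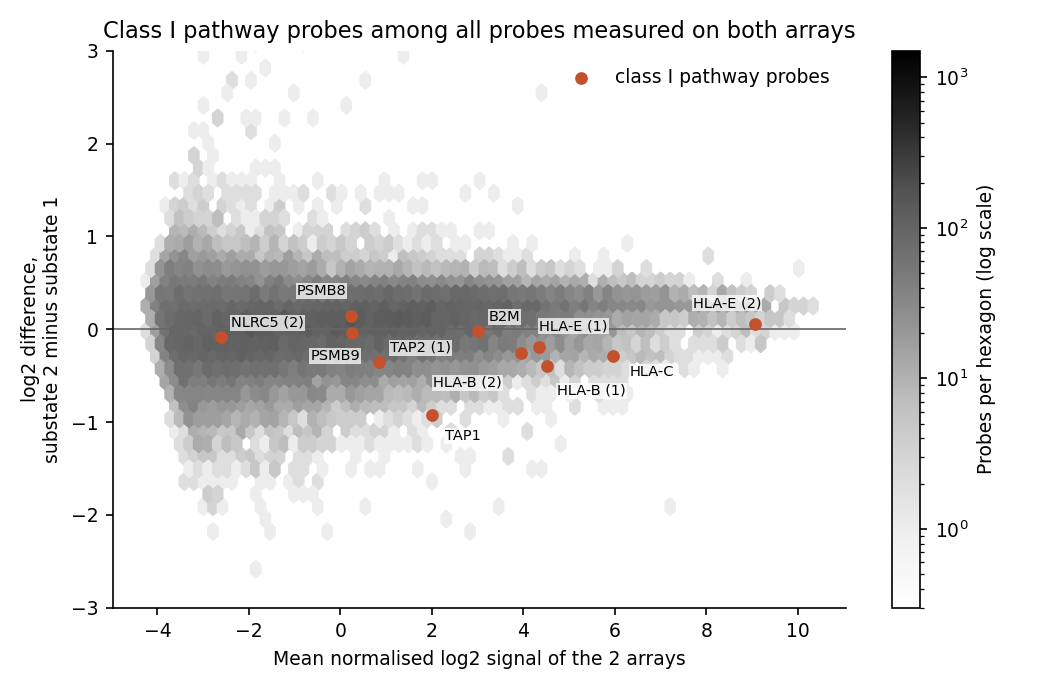
Log2 difference of every measured probe against its mean normalised log2 signal, with grey shades for the number of probes in a hexagon and red points for the 11 measured class I pathway probes. TAP1 lies near the lower edge of the probes of like signal and the others lie inside the cloud, and 5 probes beyond -3 or 3 are not drawn.

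The genes with which these 9 work were described from lists chosen for their roles. Among genes that load and trim peptides, 10 of 11 were measured, 6 lower and 4 higher, and 9 lay below the median gene. Their median difference of -0.04 became 0.01 with median centring and -0.13 with loess centring. With quantile normalisation or loess centring all 10 were lower, and with median centring 5. TAPBP (tapasin), which holds an empty class I molecule at the transporter, was the lowest at -0.45. All of its 3 probes were lower, at -0.73, -0.30 and -0.34. LNPEP, an aminopeptidase that trims peptides in endosomes, was at -0.44 and PDIA3, a disulfide isomerase of the loading complex, at -0.14.

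Other class I and class I-like genes were all lower where measured, 5 of 8, with a median of -0.12, where 40.2% of all measured genes were lower. AZGP1, a soluble class I-like protein, was at -0.94 and HLA-F at -0.23, the mean of probes at -0.11 and -0.34. The limit given above for signal of one heavy chain on the probe of another holds for HLA-F and HLA-G of this list too. PROCR, a class I-like receptor of protein C, was at -0.12. The same held for ligands of natural killer cell receptors, with 7 of 11 genes measured, 7 lower and a median of -0.33, although PVR (-0.00) and NCR3LG1 (-0.01) lay next to 0. With median centring 5 of the 7 were lower, with quantile normalisation or loess centring 6, and with normexp 4. ULBP1, a ligand of the activating receptor NKG2D, was at -0.90 (156 against 73.2), the related MICA at -0.40 and the adhesion ligand NECTIN2 at -0.37. Both list medians stayed below 0 under every scaling and with normexp, between -0.30 and -0.08 for the first and between -0.39 and -0.26 for the second. MICA and MICB have 2 measured probes each, and all 4 were lower, between -0.45 and -0.30.

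Proteasome genes pointed the other way. Of 14 constitutive subunit genes 13 were higher in substate 2, with a median of 0.33, where 59.8% of all measured genes were higher. PSMB5, the constitutive subunit that PSMB8 replaces, was at 0.42. PSMB7 was at 0.38 and PSMA5 at 0.37. The other immunoproteasome and activator genes had 6 of 7 higher and a median of 0.31, with PSME3 at 0.59, the proteasome inhibitor PSMF1 at 0.43 and PSME1 at 0.41. PSMB10, an immunoproteasome subunit like PSMB8 and PSMB9, was at 0.31 (7302 against 7939). PSME1 codes for a part of the activator cap that interferon gamma induces. The 2 list medians stayed above 0 under every scaling. They lay between 0.14 and 0.38 for the constitutive genes and between 0.16 and 0.35 for the other immunoproteasome and activator genes.

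The regulators of class I genes held genes of both directions. Factors that bind class I promoters had 3 lower and 7 higher of 10 measured genes, with a median of 0.17. RFXANK, a subunit of the RFX complex on the X box, was at 0.41, NFYA, a subunit of NF-Y, at -0.35 and ATF1, of the cAMP response element family, at 0.34. NF-kappaB factors had 2 lower and 7 higher with a median of 0.19, with RELA at 0.33, the inhibitor NFKBIA at 0.33 and REL at -0.23. Genes known to repress class I had 3 lower and 4 higher with a median of 0.03, which turned to -0.08 with loess centring, with the ubiquitin ligase MARCHF4 at 0.51, SUSD6 at -0.39 and WWP2 at 0.19. NR2F2, an orphan receptor counted among them, was well above background in substate 2 only (3.62 against 31.9) and was at least 2.51-fold higher, a bound against the lowest signal of substate 1 that counts as measured.

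The interferon pathway, through which most of these genes are known to be induced, had a median near 0. Of its receptors and JAK-STAT genes 10 were lower than 0 and 9 higher, and 16 of the 19 lay below the median gene, with a median of -0.00. IRF9, part of the complex that binds the interferon-stimulated response element, was at -0.59, and the feedback inhibitors SOCS3 and SOCS1 were at -0.54 and -0.40. IRF1, named for its known role on TAP1 and PSMB9 after its value was seen, was at 0.37. Of 35 interferon-stimulated genes 34 had a probe, 20 were measured and 13 were measured on neither array. Of the 20, 10 were lower and 10 higher, and 13 lay below the median gene, with a median of 0.00. IFIH1, a sensor of double-stranded RNA, had 61.9 against 17.4, a difference of -1.64 and a Z-score of -2.70. IFIT1, which binds foreign RNA, had 156 against 302, a difference of 1.14, and IFIT5 was at 0.66.

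**Figure D4:**
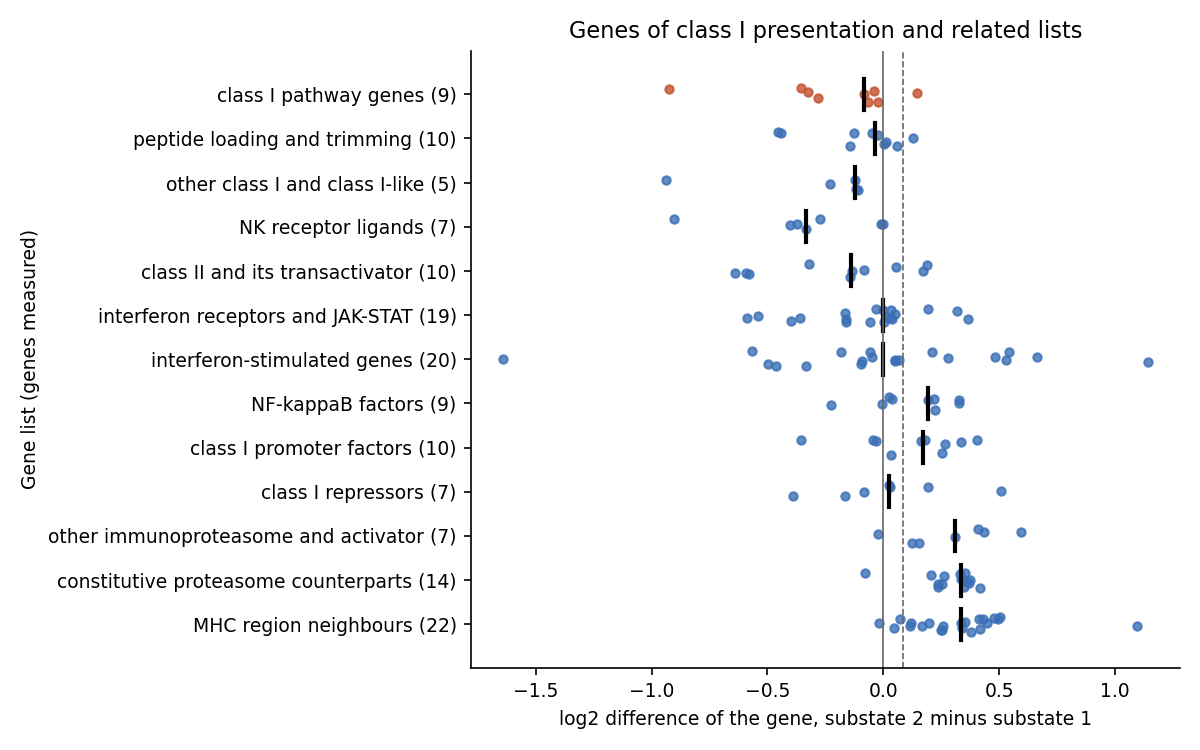
Log2 difference of each measured gene (points) in the 9 class I pathway genes and in related lists, with the number of measured genes in brackets, black bars for medians, a solid line at 0 and a dashed line at the median of all measured genes, 0.08. Class I-like genes and natural killer ligands lie at or below 0 (2 ligands lie above it with median centring), most proteasome genes and most other genes of the MHC region above it, and interferon-stimulated genes on both sides.

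HLA-B, HLA-C, HLA-E, TAP1, TAP2, PSMB8 and PSMB9 lie in the MHC on chromosome 6, whereas B2M is on chromosome 15. The other genes of that region in the list, none of them of class I or class II, were higher for 21 of 22 measured, where 59.8% of all measured genes were higher. Their median of 0.34, against 0.08 for all measured genes, fell to 0.22 with quantile normalisation and 0.21 with loess centring. NOTCH4, a Notch receptor, was at 1.09, with PPP1R18 at 0.50 and the RNA helicase DDX39B at 0.50. In chromosomal order, the run HLA-C, HLA-B, MICA and MICB was lower at -0.28, -0.33, -0.40 and -0.33, and kept that direction under every setting. It was flanked by POU5F1 at 0.27 and DDX39B at 0.50. The class II stretch held HLA-DQB1 at -0.58, HLA-DQB2 at -0.35, HLA-DOB at -0.64, TAP2 at -0.35, PSMB8 at 0.14, TAP1 at -0.92, PSMB9 at -0.04, HLA-DMB at 0.19 and HLA-DMA at -0.14. Class II genes as a list had 7 lower and 3 higher of 10 measured, with a median of -0.14, and their transactivator CIITA was well above background on neither array. HLA-DRA, the alpha chain of the class II molecule HLA-DR, was at -0.59.

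**Figure D5:**
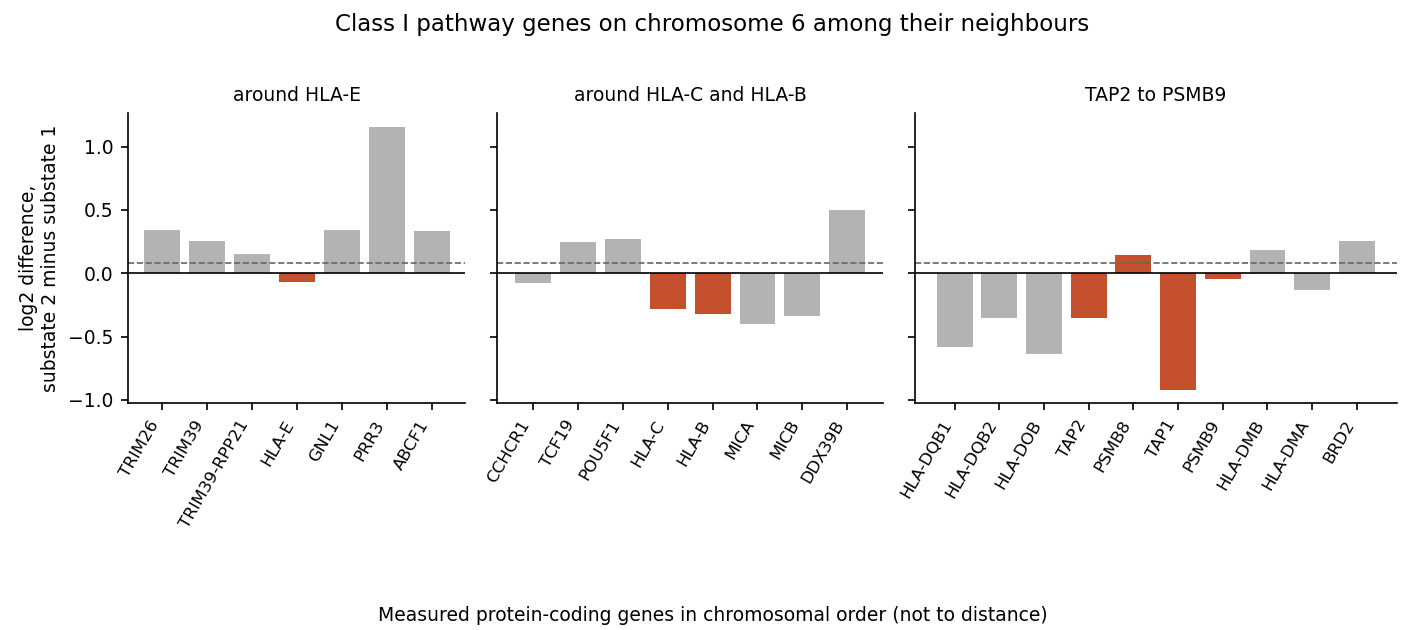
Log2 difference of measured protein-coding genes in chromosomal order around HLA-E, around HLA-C and HLA-B, and from HLA-DQB1 to BRD2, with red bars for the class I pathway genes, grey bars for their neighbours, a solid line at 0 and a dashed line at the median of all measured genes. HLA-C, HLA-B, MICA and MICB form a run below 0 between higher genes, and PSMB8 and PSMB9 near 0 alternate with TAP2 and TAP1.

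Markers of other cell types that could carry class I were measured for only a part of each list. Of 12 blood cell genes 10 had a probe, 6 were measured and 4 (CD3E, ITGAX, CD48 and LAPTM5) were measured on neither array. Their summed signal, in units of the 75th percentile of the array, was 2.92 in substate 1 and 3.36 in substate 2, and the largest differences were those of CORO1A (0.74), ITGAM (-0.59) and TYROBP (0.25). The sum was 15.6 and 12.2 for fibroblast markers, with COL3A1, DCN, LUM, POSTN and FAP measured on neither array, PDGFRA at 0.65, COL1A2 at -0.50 and COL1A1 at -0.49. It was 6.64 and 4.50 for endothelial markers, with PECAM1 and ERG on neither, TEK at -0.93, KDR at -0.71 and CDH5 at 0.32. It was 10.3 and 11.4 for trophoblast markers, of which 3 of 9 were measured and 5 were measured on neither array. The 3 measured trophoblast genes were TFAP2C at -1.86, CGB3 at 0.18 and KRT7 at 0.16, and CGA was at least 2.12-fold higher. Summed pluripotency markers were at 1726 and 1855. The part of such cells in the class I differences was not tested.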

How the data were processed

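The authors deposited the scanner output of both arrays, with an intensity for every spot. Per the file headers, Agilent Feature Extraction 11.5.1.1 with protocol GE1_1105_Oct12 subtracted the background, and the array design was annotated on hg19. The authors also deposited log2 values scaled, per their methods, to the 75th percentile in GeneSpring. On each array, 100% of these differed from the values computed here by a fixed offset, with a tolerance of 0.01.

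Control and outlier spots were left out, signals under 1 were set to 1, log2 intensities were shifted by the 75th percentile of each array, and spots of a probe were averaged. A gene value is the mean over its probes well above background on both arrays. Z-scores used the mean and SD of the difference over all probes. Probes were named through RefSeq accessions (53.4% of probes). Promoter windows come from RefSeq (GRCh38.p14), and no coordinate was moved between builds. Both arrays shared 1 slide and scan time. Replicate spots of a probe had a median SD of 0.05 on each array, and 2 arrays limit the precision.

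The genes and lists were chosen with earlier results of these data known. All 9 genes were named with every probe. From the other lists, genes past the Z-score or 2-fold limits and the 3 with the largest differences were named, and others for their role after their values were seen. No test was possible with 1 array per substate. Alternatives were other scalings, Z-scores, fold limits and filters, and normexp with offset 50 on median signals, chosen after seeing the data because the mean signal was not among the columns used. Scripts were tested on simulated data. Python 3.11.15, R 4.3.3 and limma 3.58.1 were used.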

Additional observations from a re-analysis of the deposited data

How the results depend on the processing

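The median difference of the 9 genes was -0.08. It was -0.22 with quantile normalisation, -0.25 with loess centring and -0.28 when dim probes were kept, and between -0.14 and -0.04 under the other settings, so its direction held in all of them. No probe passed the Z-score limits, against 3 with normexp, which narrowed the SD of all differences to 0.23 (TAP1 -3.61, one HLA-B probe -2.41 and HLA-C -2.12, where 4.90% of all probes passed). With an SD from the median absolute deviation 3 probes passed as well (TAP1 -3.0 and the dim probes of TAP2 and NLRC5, where 18.6% of all probes passed). With Z-scores over probes measured on both arrays 1 probe passed, TAP1 at -2.38, where 4.68% of those probes passed. Under the 1.5-fold rule, which leaves out the dim probes, the count was 1 in place of 0, again TAP1. B2M, PSMB9, NLRC5 and the second HLA-E probe changed sign under at least 1 setting, all at differences within 1 software error of 0. The median over all genes ran from 0.02 to 0.13 across settings. Naming probes through a gene name column was not run, since the scanner files used here have none. No paired analysis was possible because the substates have no replicate numbers. With 1 array per substate and 1 spot for most probes, differences of the size of those of HLA-B, HLA-C and TAP2 lie between 1 and 2 software errors. Replicate spots gave a smaller SD of 0.07 for a difference, which also covers the measurement alone.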
